A study of Schizosaccharomyces pombe with 3 samples.

Results

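The effect of 30 min of Prp4 inhibition was taken apart into what happened to spliced and to unspliced RNA. Cells of the fission yeast *Schizosaccharomyces pombe* carrying *prp4-as2*, an allele whose kinase can be blocked by the ATP analogue 1NM-PP1, were grown in EMM medium and sequenced before (0 min, untreated) and 30 min after addition of the inhibitor. Both groups carry the *prp4-as2* mutation, each is 1 library, and no *prp4* wild-type strain with inhibitor and no other culture was part of the comparison. The library from 60 min does not enter it. The deposited table gives, at the 5’ SS of each intron, the number of split reads, in which both exons are joined (spliced RNA), and of unsplit reads, which cross from the exon into the intron (unspliced RNA). Of 5368 junctions, the 4414 with more than 10 reads of both kinds together in each library were kept, in 2214 genes. They held 99.1% of the untreated and 99.2% of the 30 min junction reads. The other 954 had too few reads at 1 or both times. The 109 junctions just above the minimum, whose lower total was 11 or 12 reads, had a median split fold of 0.485 and a median unsplit fold of 2.85, and the 124 just below it, with 9 or 10 reads, had 0.534 and 2.67.

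In the spliceosome, the 5’ SS is first bound by snRNA U1 through base pairing and is then handed over to snRNA U6, while snRNA U2 pairs with the branch sequence. Prp4 is a kinase of the U4/U6-U5 tri-snRNP that phosphorylates splicing factors around the time at which the complex is activated for catalysis. Blocked splicing can act on both readouts used here. Unspliced RNA accumulates when new transcripts are not spliced, and spliced RNA declines when existing messages decay and are not replaced. The index used for these libraries (RSEI), the log2 ratio of split to unsplit reads, joins both readouts in 1 number and cannot show which of them moved.

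Junction reads numbered 910440 before and 852562 after 30 min of inhibition. Of these, 6.92% (exact 95% binomial interval 6.86 to 6.97) and 30.0% (29.9 to 30.1) were unsplit. Per intron, each readout was expressed as a share of all junction reads of its library. Its fold is the 30 min over the untreated value after 1 read was added to the count. An intron was counted as changed past 2-fold. Ratios given with a 95% interval were computed without the added read. With 1 library per side there is no replicate error and no test was made. Intervals of ratios and shares cover counting error only. Intervals of medians cover the spread between introns, not between cultures. They treat introns as independent, although introns of 1 gene are not. Reads were amplified by PCR and carry no molecular identifiers, so that they are not independent molecules. Folds are shares of a library, so that fewer cells and less RNA per cell cannot be told apart.

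Introns that carry the main observations are printed below from RefSeq assembly ASM294v3, 5’ to 3’, as DNA letters. The first 3 letters are the end of the exon, capitals mark the first 6 bases of the intron (5’ SS), and the last bases are the 3’ SS. These sequences are shown because their introns show a loss or a gain most clearly. The first set holds introns whose split reads fell to 0 or nearly so, with better preserved introns of *csn1*, SPBC13G1.14c and *tsn1*. SPBC27B12.05 introns III and IV lie at chrII:1329416-1329457, plus strand, and chrII:1329556-1329596, *csn1* introns II and III at chrII:4029091-4029164, minus strand, and chrII:4028306-4028346, SPBC13G1.14c introns I and II at chrII:3727811-3727876, minus strand, and chrII:3727658-3727704, and *tsn1* introns II and IV at chrI:4395368-4395415, minus strand, and chrI:4394968-4395009. All 8 interrupt coding sequence.
SPBC27B12.05 intron III: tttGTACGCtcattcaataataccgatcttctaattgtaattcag
SPBC27B12.05 intron IV: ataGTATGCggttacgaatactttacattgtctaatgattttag
csn1 intron II: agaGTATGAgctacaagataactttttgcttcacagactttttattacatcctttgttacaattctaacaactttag
csn1 intron III: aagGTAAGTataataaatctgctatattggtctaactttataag
SPBC13G1.14c intron I: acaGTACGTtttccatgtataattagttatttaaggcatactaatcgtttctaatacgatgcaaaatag
SPBC13G1.14c intron II: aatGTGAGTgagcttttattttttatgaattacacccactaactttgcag
tsn1 intron II: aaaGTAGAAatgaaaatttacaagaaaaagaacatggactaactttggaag
tsn1 intron IV: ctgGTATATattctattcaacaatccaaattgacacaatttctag

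The second set holds introns that gained unsplit reads and whose split reads did not fall past 2-fold. The split ratio was lowest in SPCC825.02 II, at 0.573 (0.373 to 0.866). They lie at chrIII:371287-371352, plus strand (*qcr9* I), chrII:3172350-3172402, plus strand (*rpl29*), chrIII:1025785-1025840, plus strand (SPCC825.02 II), chrI:4426602-4426653, minus strand (*srp2* IV) and chrI:4426528-4426576, minus strand (*srp2* V), all in coding sequence.
qcr9 intron I: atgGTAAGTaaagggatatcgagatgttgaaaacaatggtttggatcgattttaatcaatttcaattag
rpl29 intron: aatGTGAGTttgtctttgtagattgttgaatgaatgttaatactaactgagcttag
SPCC825.02 intron II: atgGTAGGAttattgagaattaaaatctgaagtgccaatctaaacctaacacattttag
srp2 intron IV: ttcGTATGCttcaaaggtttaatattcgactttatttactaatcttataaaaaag
srp2 intron V: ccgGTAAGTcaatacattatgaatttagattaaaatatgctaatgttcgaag

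Gain of unspliced RNA past 2-fold was seen at most introns, and loss of spliced RNA past 2-fold at fewer. Unsplit reads were up past 2-fold in 3681 of the 4414 introns (83.4%) and down past 2-fold in 18 (0.408%). Split reads were down past 2-fold in 1589 (36.0%) and up in 69 (1.56%). At the median, an intron had 70 split reads before and 38 after 30 min, and 6 unsplit reads before and 28 after. With so few unsplit reads at the start, the same number of reads makes a larger fold in them than in split reads. The median unsplit fold was 4.27 (4.27 to 4.47, order statistics over introns), with quartiles of 2.55 and 7.21. The median split fold was 0.665 (0.651 to 0.685), with quartiles of 0.368 and 1.01. Seen per intron against counting error, the 95% interval of the unsplit ratio lay wholly above 1 in 3278 introns and below 1 in 6. That of the split ratio lay wholly below 1 in 2223, above 1 in 367, and included 1 in 1824.

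Both changes occurred at the same intron in 1344 cases (30.4%), which lie in 867 genes. Their split reads fell to a median fold of 0.291 and their unsplit reads rose 5.09-fold. In the largest group, 2337 introns (52.9%), unsplit reads rose past 2-fold (median 5.07-fold) while split reads did not fall past 2-fold (median 0.891). A small group of 245 introns (5.55%) lost split reads (median fold 0.260) without a 2-fold gain of unsplit reads (median 1.42), and its size depends on the processing, with 105 introns relative to the split reads of the library, 77 with 50 or more reads in both libraries and 386 with 1 or more. The remaining 488 introns (11.1%) passed neither limit. These medians follow from the limits that define each group and are a description. Over all introns the log2 folds of both readouts had a Pearson r of -0.01 and a Spearman rho of -0.06. This is a description over introns of the same 2 libraries, and introns are not independent replicates.

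**Figure D1:**
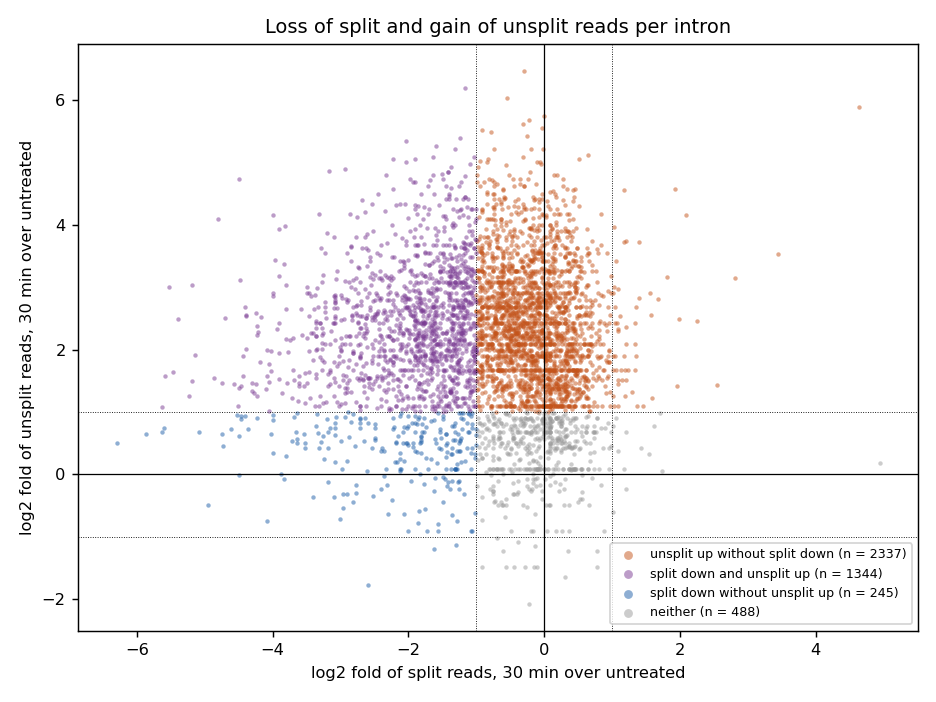
Each point is 1 of the 4414 kept introns, with the log2 fold of split reads on the x axis and that of unsplit reads on the y axis (30 min over untreated, as shares of the library, 1 read added). Dotted lines mark 2-fold, and colours the 4 groups. Most points lie above the upper dotted line, and they spread from no loss to over 4 log2 units of loss of split reads.

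The RSEI fell in 4290 of the 4414 introns, with a median change of -2.89 on the log2 scale. On the log2 scale, the gain of unsplit reads was the larger contribution in 3470 of these (80.9%), and the loss of split reads in 820. Before the inhibitor the median intron had 70 split and 6 unsplit reads. The same number of reads is thus a larger fold in unsplit than in split reads, and part of this order is built in. The median log2 folds were 2.09 for unsplit and -0.59 for split reads. The sum of split and unsplit reads of an intron, a proxy for all RNA across the junction, had a median fold of 1.10 (quartiles 0.777 and 1.44), and were down past 2-fold in 378 introns and up in 399. Since every value is a share of the library, gains and losses summed over all introns must balance. Scaling by split reads alone would multiply every fold by 1.33, and scaling so that the median intron keeps its sum would multiply every fold by 0.912.

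Loss of split reads was nearly complete in introns of *csn1*, *tsn1*, SPBC27B12.05 and SPBC13G1.14c, among others. Among introns with 50 or more untreated split reads, the 10 lowest split folds included 5 introns without a single split read at 30 min. Intron III of SPBC27B12.05 (*crt10* in RefSeq, a WD repeat protein) fell from 83 split reads to 0, at least 25.9-fold lower at a floor of 3 reads per library, and intron IV from 61 to 0, at least 19.0-fold. Their unsplit reads were 14 before and 19 after (ratio 1.45, 0.689 to 3.12) and 14 before and 21 after (1.60, 0.777 to 3.41), intervals that include 1. The farther introns VI and VII of the same gene kept 22 of 35 and 16 of 30 split reads.

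In *csn1*, encoding a subunit of the COP9 signalosome, intron II went from 52 split and 7 unsplit reads to 0 and 11, at least a 16.2-fold loss of split reads. Intron I of SPBC13G1.14c (*rns1*, a putative RNA-binding protein) went from 52 and 37 to 0 and 74, and intron II of SPAC13G7.11 (*mba1*, respiratory complex assembly) from 50 and 4 to 0 and 13. In *tsn1*, encoding translin, a protein that binds RNA and single-stranded DNA, 258 split and 343 unsplit reads of intron II became 4 and 537. That intron was already mostly unspliced before the inhibitor. Its split reads fell to a ratio of 0.0166 (0.00448 to 0.0429), with only a 1.67-fold gain (1.46 to 1.92) of unsplit reads.

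The other 4 introns of this group kept between 1 and 3 split reads. They were intron I of SPBC1711.04 (*mtd1*), with 141 split and 11 unsplit reads before and 2 and 34 after, intron II of *icp55* (113 and 10 before, 3 and 15 after), intron III of SPBC1703.08c (79 and 19 before, 1 and 44 after) and intron III of SPAC323.05c (*mtq2*, the methyltransferase of the translation termination factor eRF1; 61 and 11 before, 1 and 32 after). Among the 10, the interval of the unsplit ratio was wholly above 1 in 6 and included 1 in 4. Complete loss was rare in the whole set. Only 63 of the 4414 introns had 0 split reads at 30 min, 17 of them with 20 or more before, and 14 had none at either time.

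In number of reads, the 10 introns with the largest loss of split reads held 9.67% of the summed loss. Ranked per 1000000 junction reads, they included 7 of ribosomal protein genes, among them *rpp102* I (9394 split reads before, 4463 after), *rpl2501* (13082 and 8397), *rpl22* I (7792 and 3631), *rps13* II (7955 and 5518), *rps21* (11785 and 9469) and *rps1802* (5292 and 3524). Their split ratios ran from 0.498 in *rpl22* I to 0.858 in *rps21*, against a median split fold of 0.665 over all introns. Scaling by split reads alone would multiply each ratio by 1.33. The intron of *rps2202*, in the 5’ UTR, fell from 1844 to 375 while its unsplit reads stood at 221 and 237 (ratio 1.15, 0.949 to 1.38). Some of these genes, such as *rpp102*, *rpl2501* and *rps1802*, belong to paralog families, and reads were counted only where they mapped uniquely. The other 3 introns were *tbp1* I, SPBC31F10.12 II and SPBC19G7.17 III (*sec6102*, a subunit of the protein translocon, 2437 and 947).

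The intron I of *tbp1*, encoding the TATA-binding protein of all nuclear RNA polymerases, had 2054 split and 238 unsplit reads before, and 84 and 340 after 30 min. The split ratio was 0.0437 (0.0347 to 0.0543) and the unsplit ratio 1.53 (1.29 to 1.81). Introns II and III fell from 144 to 13 and from 342 to 35 split reads. Over the 3 introns of *tbp1*, split reads went to 0.0555 and unsplit reads to 1.65 of the untreated share, and both together to 0.229. Junction reads of *tbp1* in either form were thus fewer. Intron II of SPBC31F10.12 (*tma20*, RNA-binding) behaved alike, with 1604 split and 114 unsplit reads before and 89 and 299 after, a split ratio of 0.0593 (0.0473 to 0.0734). In both genes far more split reads were lost than unsplit reads gained.

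**Figure D2:**
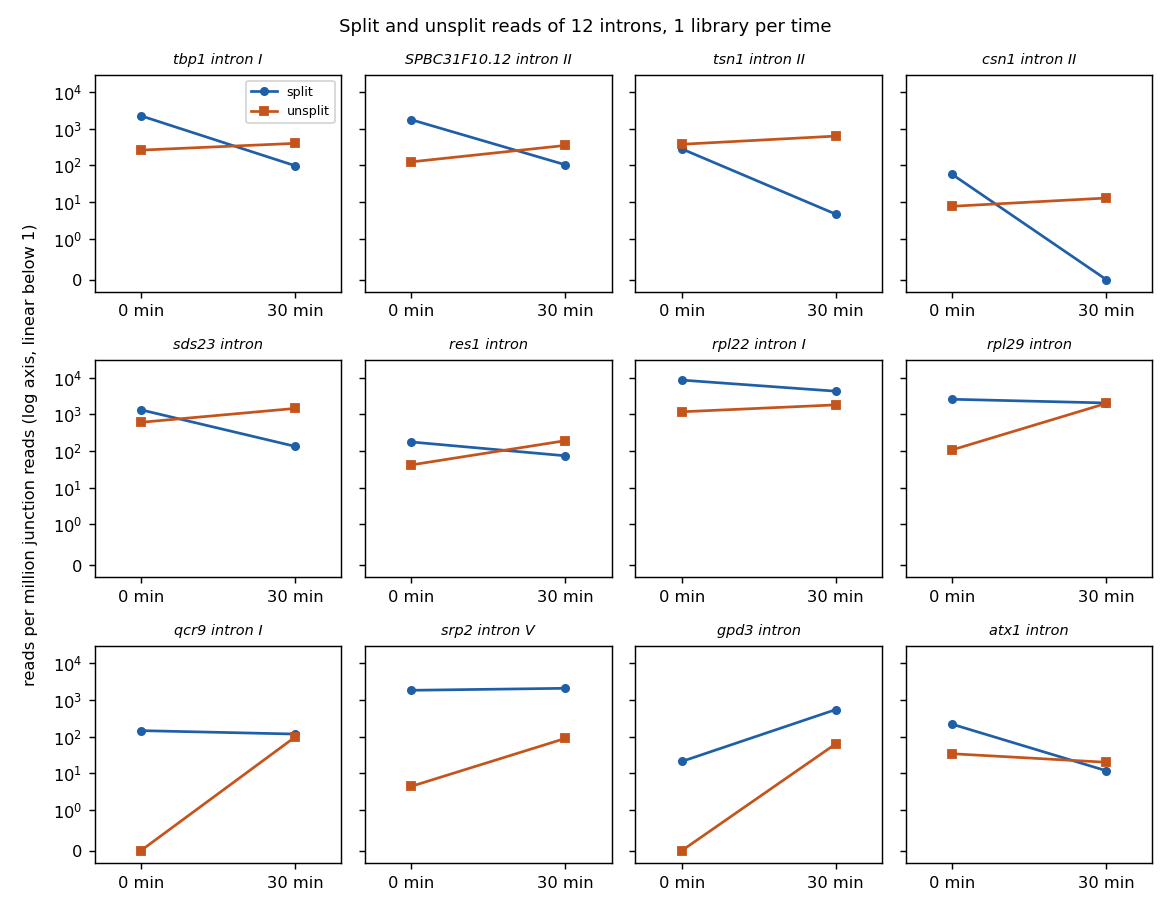
Reads per 1000000 junction reads (log axis, linear below 1) of split (circles) and unsplit (squares) RNA at 0 and 30 min in 12 introns, 1 library per time, so that no error bars can be drawn. Split reads fell steeply in *tbp1* I, SPBC31F10.12 II, *tsn1* II and *csn1* II, whereas in *rpl29*, *qcr9* I and *srp2* V the unsplit reads rose and the split reads changed by a much smaller fold.

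In the 245 introns that lost split reads without a 2-fold gain of unsplit reads, the summed reads had a median fold of 0.456, which follows in part from how the group was chosen. Already in untreated cells their median unspliced share was 14.9%, against 6.80% over all introns. The gene with most of them was *icp55*, a peptidase, in which 8 of 9 kept introns belonged to the group. Over these 9 introns split reads fell from 1256 to 234 (ratio 0.199) while unsplit reads stood at 79 and 91 (ratio 1.23), and the split folds ranged from 0.0375 to 0.375. The gene was singled out after its values were seen. The intron of *atx1*, a copper chaperone, had 198 split and 31 unsplit reads before and 10 and 17 after. Intron II of *rpb5*, a subunit shared by the nuclear RNA polymerases, had 438 and 3 before and 119 and 16 after, a gain past 2-fold from few unsplit reads. In *rpb5* as in *tbp1* both readouts together were low, at 0.375 of the untreated share.

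Gain of unsplit reads from almost none was seen in introns with at most a few unsplit reads before the inhibitor. Of the kept introns, 326 had 0 unsplit reads in untreated cells and 1155 had 1 to 3, so that many single folds are imprecise. Among introns with 50 or more unsplit reads at 30 min, the highest fold was that of *qcr9* I, in a gene for a subunit of the cytochrome bc1 complex of respiration. It had 132 split reads and no unsplit read before and 100 and 82 after, at least a 29.2-fold gain. Split reads changed little (ratio 0.809, 0.618 to 1.06). Intron I of SPBC337.03 (*rhn1*, transcription termination) went from 88 and 0 to 36 and 68, at least a 24.2-fold gain, and *rps1801*, which has a paralog in *rps1802*, from 956 and 0 to 609 and 60, at least 21.4-fold.

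In SPCC825.02 (*gbs1*, glucosidase II of the endoplasmic reticulum), intron II had 69 split and 2 unsplit reads before and 37 and 124 after, an unsplit ratio of 66.2 (17.9 to 553). Intron II of SPBP8B7.10c (*utp16*, a protein of the U3 snoRNP of ribosome biogenesis) went from 117 and 2 to 107 and 131, intron II of *phb2*, a prohibitin, from 104 and 1 to 51 and 85, and the intron of *mud1* from 148 and 1 to 116 and 79. Intron IV of *sec15*, of the exocyst, went from 148 and 2 to 58 and 117, and intron I of *arp8*, of the Ino80 chromatin remodeller, from 89 and 1 to 27 and 71. The lower ends of the unsplit intervals in these 6 introns lay between 13.2 and 19.0. Split reads were kept at a ratio near 1 in *utp16* (0.977, 0.744 to 1.28) and fell to 0.324 (0.202 to 0.503) in *arp8*.

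In number of reads, the largest gain of unsplit RNA was that of *rpl29*, encoding a protein of the large ribosomal subunit. Its 2339 split and 97 unsplit reads became 1736 and 1689. The unsplit ratio was 18.6 (15.1 to 23.1) and the split ratio 0.793 (0.744 to 0.844). The unspliced share thus rose from 3.98% (3.24 to 4.84) to 49.3% (47.6 to 51.0) almost wholly by unsplit reads. The intron of *rpl35* followed, with 3004 and 152 before and 2253 and 1438 after. In *sds23* the 5’ UTR intron showed both changes, with 1207 and 550 before and 114 and 1231 after. In *rpl39* the 3’ UTR intron went from 1092 and 554 to 396 and 1285, and in SPAC1687.21 intron III from 782 and 110 to 255 and 917. The remaining 5 of the 10 largest gains were *rps13* II and *rpl2501*, named above for their loss, and junctions of SPAC1A6.03c, SPBPB21E7.08 and *fta3* for which no intron is annotated in ASM294v3.

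The genes for the SR proteins, splicing regulators with serine and arginine rich domains, gained unsplit reads and kept their split reads. Over the 9 introns of *srp2*, split reads were 8650 and 8507 (ratio 1.05) and unsplit reads 294 and 809 (ratio 2.94). Their split folds ranged from 0.840 to 1.52 and their unsplit folds from 1.61 to 23.0. Introns IV and V, printed above, have 4 and 8 bases that match the consensus for pairing with snRNA U1. Intron IV had 1536 split and 5 unsplit reads before and 1227 and 86 after, and intron V had 1660 and 4 before and 1762 and 76 after. In *srp1*, unsplit reads rose 11.1-fold over both introns at a split ratio of 1.03. In *res1*, of the MBF transcription factor for the G1 to S transition, 160 split and 38 unsplit reads became 63 and 163, a split ratio of 0.420 (0.309 to 0.566) and an unsplit ratio of 4.58 (3.20 to 6.70). For *cdc2*, the main cell cycle kinase, the split ratio over 5 introns was 0.669 and the unsplit ratio 7.69. Its split folds ranged from 0.0763 to 0.824 and its unsplit folds from 1.46 to 17.1. Both lowest values were those of the 5’ UTR intron I, with 13 split and 10 unsplit reads before and 0 and 14 after.

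Other genes the study examined differed in which readout moved. In *ade2*, of purine synthesis, split reads went from 812 to 336 over 2 introns (ratio 0.442) and unsplit reads from 43 to 105 (2.61). In *mrp17*, of the mitochondrial ribosome, intron I had 71 split and 11 unsplit reads before and 13 and 84 after, ratios of 0.196 (0.0993 to 0.356) and 8.15 (4.33 to 17.0). Intron II of *mrp17* had 61 and 7 before and 22 and 10 after. Its split ratio was 0.385 (0.225 to 0.636), and the interval of its unsplit ratio of 1.53 included 1 (0.524 to 4.72). The intron of *ppk8*, a protein kinase, had 48 split and 6 unsplit reads before and 51 and 13 after, and both intervals included 1 (0.750 to 1.72 and 0.821 to 7.42). Below the read minimum were *res2*, with 3 split and 3 unsplit reads at both times, and *prp4* itself, with 6 and 0 before and 2 and 4 after. Nothing can be read from so few reads, and the inhibitor acts on the kinase and not on its RNA.

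Split reads rose past 2-fold at 69 junctions, and unsplit reads also rose past 2-fold at 56 of them (81.2%, against 83.4% of all introns). The largest rise among introns with 50 or more split reads at 30 min was that of *gpd3*, encoding glyceraldehyde 3-phosphate dehydrogenase. Its 5’ UTR intron went from 19 split and 0 unsplit reads to 463 and 54, a split ratio of 26.0 (16.5 to 43.6). Intron I of *sec231*, of the COPII vesicle coat, went from 11 and 3 to 78 and 32. In the intron of *gpd3* as in *sec231*, spliced and unspliced RNA rose together, and the unspliced share at 30 min was 10.4% (7.94 to 13.4) in *gpd3*. The other 3 of the 5 largest rises, in *pis1* (13 split reads and 28 unsplit reads before, 76 and 72 after), SPAC1A6.03c (*plb3*, a lysophospholipase, 57 and 256 before, 258 and 1313 after) and SPBPB21E7.08 (5 and 117 before, 60 and 1273 after), were junctions with no annotated intron.

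Such junctions, 49 of the 4414, had a median unsplit fold of 1.45, against 4.27 over all kept introns. Their median split fold was 1.07. A junction with 0 split reads at both times has the same fold of 1.07, set by the added read and the library totals. The split median rests on few reads and cannot show whether spliced RNA changed there. The 49 junctions were mostly unspliced before the inhibitor, with a median unspliced share of 68.3% in untreated cells and 77.8% after. Intron II of *fta3*, a kinetochore gene, had 0 split reads at both times and 105 and 817 unsplit reads. At such junctions a rise of unsplit reads cannot be told apart from a rise of the transcript.

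Fewer unsplit reads at 30 min were found at only 18 introns past 2-fold. The introns described next had 20 or more untreated unsplit reads and are among those with the lowest folds. Intron I of SPBC3E7.04c (*ric8*) had 20 and 20 before and 7 and 8 after, and the interval of its unsplit ratio included 1 (0.163 to 1.01). The interval of *atx1*, given above, also included 1 (unsplit ratio 0.586, 0.304 to 1.09). Low folds were also found at 2 junctions without an annotated intron, in SPCC1442.04c (*rmr1*, 35 and 15 unsplit reads) and SPAC1F12.03c (105 and 59).

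Summed over all kept introns and scaled to 1000000 junction reads, split reads fell from 923651 to 697276 and unsplit reads rose from 67668 to 295150. The 88 introns of cytosolic ribosomal protein genes held 25.5% of the untreated split reads. They accounted for 15.5% of the loss of split reads, summed over the introns that lost, and 8.56% of the gain of unsplit reads, summed over those that gained. Their unsplit share rose from 4.70% to 13.5%, and that of the other 4326 introns from 7.53% to 34.6%. The split reads of these other introns went to 0.724 and their unsplit reads to 4.71 of the untreated level. Loss was more concentrated than gain, since 290 introns held 50 percent of the summed loss and 473 that of the summed gain. The 100 largest held 31.4% of the loss and 21.6% of the gain.

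Introns of the same gene could differ widely in the loss of split reads although they share a promoter and a transcript. Of 1163 genes with 2 or more kept introns, every intron lost split reads past 2-fold in 214, some did in 435 and none in 514. Unsplit reads rose past 2-fold in every intron of 745 genes, in some introns of 391 and in none of 27. For 2111 pairs of neighbouring introns the log2 split folds had a Pearson r of 0.56 and the log2 unsplit folds one of 0.19. In 1042 pairs with 50 or more untreated split reads in both introns these values were 0.64 and 0.20. Unsplit reads are fewer than split reads in untreated cells, so that counting noise is larger in the unsplit fold. Among 665 genes with 2 or more introns of 50 or more untreated split reads, the split folds of a gene spanned 1.62-fold in the median. Their unsplit folds spanned 2.54-fold.

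The 10 genes with the widest span reached from 8.75-fold in SPBC16E9.19 to 34.6-fold in *csn1*. In *csn1* the split reads of intron I went from 67 to 17, of intron II from 52 to 0 and of intron III from 97 to 63. Intron II of *csn1* has 4 bases that match the consensus for pairing with snRNA U1 (4 pairs) and intron III has 8. In *tsn1*, split reads fell at each of 5 introns, with folds of 0.0206 for intron II and 0.473 for intron IV. In *cds1*, the checkpoint kinase of DNA replication, intron I went from 268 split and 15 unsplit reads to 20 and 93, and intron II from 64 and 2 to 55 and 6. Both *cds1* introns have 7 pairs, so that the count of pairs was the same where the loss differed. The positions of the pairs were not the same, and base 5 of the intron is A in intron I and G in intron II. In *aph1*, a nucleotide hydrolase, split reads rose from 147 to 214 at intron I (ratio 1.55, 1.25 to 1.93) and fell from 82 to 11 at intron II (0.143, 0.0688 to 0.270). A value of 0 split reads takes its fold from the added read, as in *csn1* and SPBC13G1.14c.

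**Figure D3:**
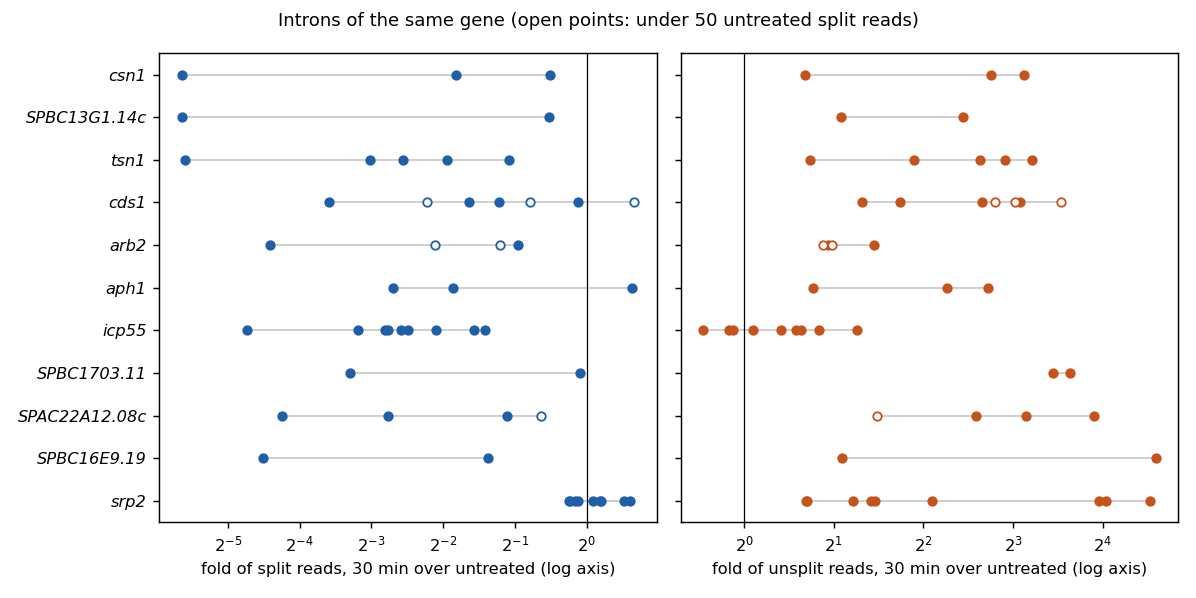
Folds of split (left) and unsplit (right) reads for all kept introns of the 10 genes with the widest span of split fold and of *srp2*, on log axes, 1 point per intron. Filled points have 50 or more untreated split reads. The introns of *srp2* lie close to 1 for split reads, whereas those of *csn1* reach from 0.0201 to 0.697.

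Genes were then grouped by function. Against 36.0% of all introns with split reads down and 83.4% with unsplit reads up past 2-fold, the lists differed more in the first readout. Loss was seen in 2 of 38 introns of proteasome genes (5.26%), 7 of 88 of cytosolic ribosomal proteins (7.95%), 18 of 117 of spliceosome and snRNP proteins (15.4%), 3 of 19 of chaperones (15.8%), 5 of 27 of translation factors (18.5%), 13 of 66 of cell cycle control (19.7%) and 13 of 60 of respiration and ATP synthase (21.7%). It was seen in 25 of 90 introns of cytoskeletal genes (27.8%), 60 of 184 of vesicle traffic (32.6%), 13 of 33 of the mitochondrial ribosome (39.4%), 33 of 78 of RNA polymerases and general transcription factors (42.3%), 7 of 15 of RNA surveillance and decay (46.7%) and 69 of 142 of DNA replication, repair and checkpoint genes (48.6%). Gain of unsplit reads was seen in 62.5% of the ribosomal protein introns and in 82.1 to 100% of those of each other list. Lists were made by gene symbol, were not checked gene by gene, and differ in reads and splice sites, whose part in these counts was not tested.

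In genes of protein folding and turnover most introns gained unsplit reads past 2-fold, and split reads were down past 2-fold in 2 of 38 introns of the proteasome and 3 of 19 of the chaperones. The proteasome, which degrades ubiquitinated proteins, had a median split fold of 1.01 and unsplit fold of 4.86. Intron I of *pre8*, a core subunit, went from 61 split and 6 unsplit reads to 122 and 32. The 2 introns with loss were *pre3* II (495 and 48 before, 206 and 285 after) and that of *rpn9* (146 and 41 before, 65 and 438 after). The chaperones, mainly subunits of the CCT complex that folds actin and tubulin, had a median split fold of 1.13 and unsplit fold of 5.87. The intron of *wos2*, the p23 partner of Hsp90, went from 1069 and 67 to 1314 and 171, but intron I of *cct3* from 205 and 4 to 52 and 91. These split medians lie near 1 and depend on the scale. With the median intron keeping its sum the proteasome stood at -0.12 and the chaperones at 0.04 on the log2 scale, without ribosomal protein introns in the total the proteasome stood at -0.02, and with 1 value a gene the chaperones stood at -0.14.

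In the translation machinery, the cytosolic ribosomal proteins showed the smallest median gain of unsplit reads of the 13 lists, 2.73-fold against 4.27-fold over all introns, with a median split fold of 0.827. The intron of *rpl14* stood out by its 26408 split and 615 unsplit reads before and 29416 and 738 after. The lowest split ratio was that of *rpl1603* (313 and 17 before, 31 and 30 after; 0.106, 0.0706 to 0.153), and *rpl3002* followed (135 and 36 before, 26 and 25 after). Both belong to paralog families. Translation factors had medians of 0.728 and 4.42. Intron II of *tif225*, for a subunit of the exchange factor eIF2B, fell from 124 to 24 split reads, whereas intron II of *tif223*, for another subunit, had 334 before and 396 after. Mitochondrial ribosomal proteins had medians of 0.611 and 5.61. Intron I of *mrpl3* went from 53 and 3 to 9 and 20, and that of *mrp10* from 29 and 1 to 62 and 6.

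Genes of the RNA machinery differed among themselves. Spliceosome and snRNP genes had a median split fold of 0.884 and unsplit fold of 4.81. Intron I of *prp10*, the SF3B1 homologue of the U2 snRNP, rose from 139 to 249 split reads, and intron II of *prp17* fell from 81 to 11. The lowest split fold of the list was that of *lsm1* I (401 and 11 before, 57 and 76 after), a protein of the cytoplasmic decapping complex and not of the spliceosome. Genes of RNA surveillance and decay had medians of 0.514 and 6.41. All 15 of their introns gained unsplit reads past 2-fold. Intron III of *red1*, of the elimination of meiotic mRNAs, went from 61 and 33 to 18 and 63, and intron I of *ste13*, a decapping helicase, from 722 and 25 to 671 and 77. RNA polymerases and general transcription factors had medians of 0.663 and 4.39, near those of all introns. Besides *tbp1*, intron I of *med20* of the Mediator went from 117 and 21 to 4 and 37, and intron II of *tfg2* of TFIIF from 121 and 10 to 213 and 36.

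Genes of DNA replication, repair and checkpoints had a median split fold of 0.526 and unsplit fold of 4.27. Intron V of *cdc24*, a replication protein, went from 68 split and 19 unsplit reads to 2 and 55, and intron V of *rad16*, a repair nuclease, from 44 and 1 to 1 and 10. Against the list, intron I of *ssb3*, a subunit of replication protein A, rose from 443 to 808 split reads (ratio 1.95, 1.73 to 2.19). Cell cycle genes had medians of 0.816 and 4.16. Intron II of *csk1*, which activates cyclin-dependent kinases, went from 82 and 25 to 6 and 75 and intron II of *cut23*, of the anaphase-promoting complex, from 129 and 4 to 10 and 34, while *apc5* I of the same complex went from 30 and 4 to 66 and 23.

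Genes of traffic, cytoskeleton and respiration lay near or above the whole set in the gain of unsplit reads. Vesicle traffic genes had medians of 0.706 and 5.31. The intron of *sec71*, an exchange factor of the Golgi, lost all of its 38 split reads, at least an 11.9-fold loss, and went from 2 to 22 unsplit reads. Cytoskeletal genes had medians of 0.682 and 5.07. Intron III of *arp3*, of the actin-nucleating Arp2/3 complex, went from 272 and 25 to 29 and 176, and intron II of *gtb1*, gamma-tubulin, from 36 and 3 to 65 and 12. The list also holds *arp5* (94 and 14 before, 17 and 96 after), which belongs to the Ino80 chromatin remodeller. Respiration and ATP synthase genes had medians of 0.786 and 5.91. Intron II of *cox8* went from 37 and 6 to 6 and 59, and intron I of *atp14* from 544 and 8 to 805 and 16. Scaled by split reads alone, the median log2 split folds of cell cycle (0.12), ribosomal protein (0.14), respiration (0.06) and spliceosome (0.23) genes were above 0.

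**Figure D4:**
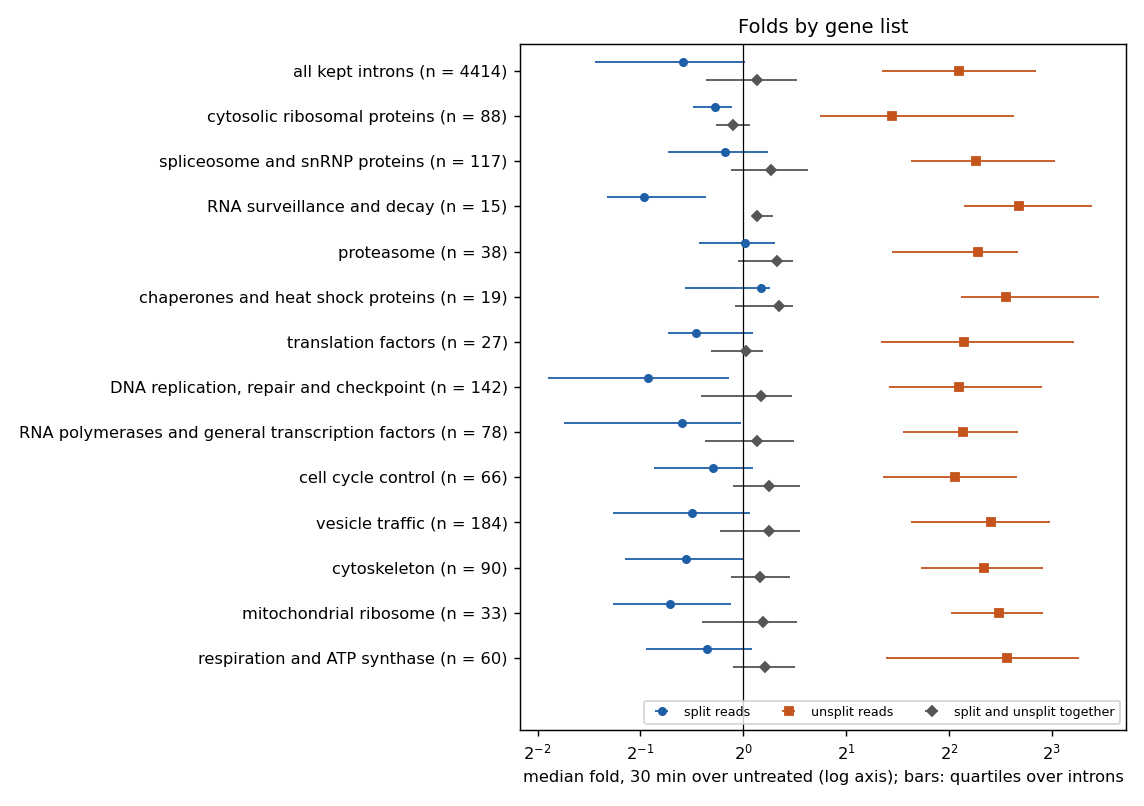
Median fold (30 min over untreated, log axis) of split reads, unsplit reads and both together for all kept introns and for 13 gene lists, with bars from the lower to the upper quartile over introns. The split medians run from 0.514 to 1.13 and the unsplit medians from 2.73 to 6.41.

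Introns were next compared by sequence features that had not entered their choice. The 9 bases at positions -3 to 6 of the 5’ SS (position 1 is the first base of the intron) were scored by matches. A match, called a pair here, is the consensus base for pairing with snRNA U1. Wobble pairs of G with U, and bases other than A that face the pseudouridine of snRNA U1 at position 4, were not counted. From 4 to 9 pairs the median split fold was 0.320, 0.480, 0.651, 0.786, 0.904 and 0.980, and loss past 2-fold was seen in 71.3%, 51.5%, 37.3%, 26.4%, 17.7% and 12.9% of the introns. The median unsplit fold varied less and not in 1 direction, with 4.67, 5.34, 4.49, 4.06, 3.20 and 2.0. Both together stayed between 0.961 and 1.16. The classes held 101, 887, 1780, 1221, 339 and 31 introns, and 6 more introns had under 4 pairs. Introns with fewer such pairs thus had the lower split folds, and those with most pairs gained fewer unsplit reads. The order of the split medians was the same in introns of 50 or more reads in both libraries (0.375 at 4 pairs, 1.10 at 9) and in coding introns alone (0.320 and 0.971).

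Among introns under 5% unspliced with 50 or more split reads in untreated cells, an alternative chosen after the data were seen, the unsplit fold also fell in steps, from 11.2 at 4 pairs (18 introns) to 3.61 at 8 (102 introns), and the split fold rose from 0.328 to 0.951. Introns such as *srp2* IV, with 4 pairs and a split fold of 0.853, and *atx1*, with 5 pairs and 0.0590, show how far single introns depart from their class. The introns of SPBC27B12.05 that lost all split reads have 4 pairs each, and introns VI and VII of that gene have 7 and 6.

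**Figure D5:**
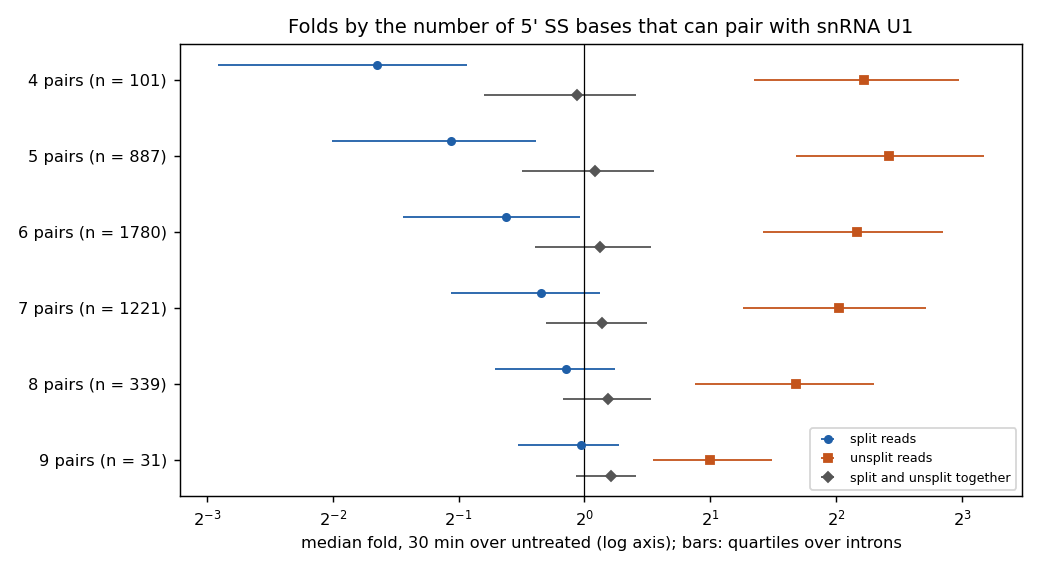
Median fold (30 min over untreated, log axis) of split reads, unsplit reads and both together, with bars from the lower to the upper quartile over introns. Introns are grouped by how many bases of the 5’ SS, 4 to 9, match the consensus for pairing with snRNA U1. The split median rises from 0.320 to 0.980, and both together stay near 1.

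By the last base of the exon, the split fold was 0.739 with G, which pairs with U1, and 0.558 with A, 0.548 with C and 0.575 with T. The unsplit fold was 3.92 with G and 4.88 to 5.34 with the others. The step was seen within the same intron bases. In introns starting with GTATGT, the median split fold was 0.912 after G (490 introns) and 0.482 after A (177 introns), and loss past 2-fold was seen in 17.1% and 52.0%. In introns starting with GTAAGT it was 0.930 after G (450 introns) and 0.717 after A (255 introns), with 14.7% and 30.6%. At position 5 the split fold was 0.691 with G and 0.400 to 0.445 with the other bases. Among the hexamers in 60 or more introns, the split fold was highest for GTAAGT (0.801, 1212 introns) and lowest for GTAAAT (0.459, 63 introns), while the unsplit medians of these 2 were 4.0 and 4.48.

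The introns also differed by how well they were spliced before the inhibitor. With 0 unsplit reads in untreated cells the median split fold was 0.862, and with an unspliced share over 20 to 40% it was 0.458. The unsplit fold went from 8.54 to 3.44 over the same classes. Untreated reads enter both folds, so that part of this order is built in. Internal introns had a lower split fold (0.562) than first (0.669), last (0.695) or only introns (0.731), at unsplit folds of 4.09 to 4.53. The 82 introns of 5’ UTRs had a split fold of 0.497 and an unsplit fold of 4.10, and the 16 of 3’ UTRs 0.475 and 1.83. Intron length made little difference, since the split fold lay between 0.643 up to 45 nt and 0.704 above 200 nt, and the median length was 56 or 57 nt in each of the 4 groups of introns. The 1979 introns with CTAAC, a common branch sequence, in the transcribed strand of their last 40 nt had a split fold of 0.719, and the 2386 without it 0.612, at unsplit folds of 4.27 and 4.49.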

How the data were processed

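The authors made directional libraries from polyadenylated RNA of *prp4-as2* cells, removed adapters with TagDust, aligned reads with TopHat to the Ensembl annotation and kept uniquely mapped reads; the processing notes also name SAMtools. The deposited counts are split and unsplit reads at each 5’ exon junction (a window of 3 bases), without normalization. The deposited log2 values (RSEI) equal the log2 ratio of both counts after adding 1, and served only to check the counts. Of 5374 lines, 6 repeat a junction and were dropped.

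Counts were divided by the split and unsplit reads of the library (910440 untreated, 852562 at 30 min), and folds were taken after adding 1 read. With 1 library per condition no test was made, and p-values were not computed. Ratios carry exact conditional binomial 95% intervals and shares exact Clopper-Pearson intervals. Intervals of medians are order statistics over introns. Where a count was 0, 1 limit of the 95% interval of the ratio is given. Median depth per kept junction was 80 and 79 reads. Intron ends and sequences come from RefSeq ASM294v3, a later assembly than the authors’ annotation, in which 4365 of the 4414 kept junctions match an annotated 5’ SS. Coordinates are 1-based. Pairing with snRNA U1 was scored as exact matches to C, A, G, G, T, A, A, G and T at positions -3 to 6.

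Named introns were those of genes the study names, the 10 lowest split folds (50 or more untreated split reads), the 10 highest unsplit folds (50 or more unsplit reads at 30 min), the 10 largest losses and gains per 1000000 junction reads, the 5 highest split folds and 5 lowest unsplit folds, the 2 lowest and 2 highest split folds of each gene list and the 10 genes with the widest span. Not every intron that met these rules is described. The *icp55* counts, neighbouring introns of named ones, and single bases and hexamers given as extremes were picked after their values were seen. The introns and the 13 lists, defined by symbol, were chosen with earlier results of these data known. Alternatives changed the added read, read filter, denominator, repeated lines, unit, fold threshold and annotated junctions. Python 3.11.15, numpy 2.4.6, pandas 2.3.3 and scipy 1.17.1 were used, and the scripts were tested on simulated data.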

Additional observations from a re-analysis of the deposited data

Results flagged for a closer look

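In the library from 60 min of inhibition, which does not enter the comparison, 22.8% of the junction reads were unsplit, above the 6.92% of untreated cells. It is 1 library, and the difference from 30 min was not tested.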

How the results depend on the processing

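No paired analysis was possible because there is 1 library per condition, and leaving out a replicate was likewise impossible. Values below are log2 medians of the split and unsplit fold, or numbers of introns, and neither median nor a fold past 2-fold of a named intron changed direction in the alternatives run. Of 300 folds of named introns and lists, 93 moved beyond their interval relative to split reads, 21 with the median intron keeping its sum and 1 without ribosomal protein introns. List medians that crossed 1 are given in the report. The median unsplit fold was 2.24 with 0.5 and 1.78 with 3 reads added, 2.0 with 1 or more reads in both libraries, and 2.09 with repeated lines kept. With 50 or more reads in both libraries the medians were -0.46 and 2.23. This filter tests fewer introns, and it left 772 with loss, 2218 with gain, 695 with both, 77 with loss alone and 1523 with gain alone. With 1 or more reads, 386 had loss alone. Relative to split reads the medians were -0.18 and 2.51, with 105 introns of loss alone and 1131 against 1589 with any loss. Without ribosomal protein introns in the total they were -0.62 and 2.06, and with the median intron keeping its sum -0.72 and 1.96. Taken per gene they were -0.53 and 2.22, with 712 genes of loss, 1936 of gain, 611 of both, 101 of loss alone and 1325 of gain alone. At 4-fold, 637 introns had loss, 2401 gain and 316 both. Without junctions that lack an annotated intron, added after the data were seen, 1583 had loss and 3661 gain. Depth limits the unsplit fold, since 326 introns had no unsplit read in untreated cells.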
